A study of Mus musculus with 11 samples.

Results

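A set of 8 genes for secreted Wnt inhibitors was followed across the mesenchyme of the mouse small intestine: Wif1, Sfrp1, Sfrp2, Sfrp4, Sfrp5, Frzb, Dkk2 and Dkk3. They were listed by symbol, 8 of the 24969 gene names in the bulk count table, and all 8 also had rows in the single-cell matrices. Wnt proteins bind Frizzled receptors and LRP coreceptors, and in the intestine this signal maintains the stem cells of the crypt. WIF1 and the secreted Frizzled-related proteins (SFRP1, SFRP2, SFRP4, SFRP5 and FRZB) bind Wnt ligands outside the cell, the latter through a cysteine-rich domain like that of Frizzled. DKK2 acts on the LRP coreceptors, whereas DKK3 is a divergent family member that is not a typical LRP antagonist.

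The bulk data were RNA counts from 4 populations sorted from the whole small intestine after muscle and epithelium had been removed, with 2 libraries each. Telocytes were the GFP-high cells, and PDGFRAlo stromal cells the GFP-low cells, of the PDGFRAH2BEGFP transgenic mouse, in which the Pdgfra locus drives a nuclear GFP. Blood endothelium (CD31+ LYVE1-) and lymphatic endothelium (CD31+ LYVE1+) were sorted with antibodies from C57BL/6 mice, so the stromal and endothelial groups also differ in strain, which cannot be told apart from cell type. One droplet library held PDGFRAEGFP+ cells mixed at 2 GFP-low to 1 GFP-high, and 2 further libraries held whole mesenchyme. The labels give no treatment and no age. Nothing says that replicates came from separate animals, so each p-value rests on library-to-library spread that may be technical. Bulk totals ran from 8549350 to 55382400 counts per library. After removal of cells with fewer than 500 genes or at least 10% mitochondrial UMIs, 3890, 6226 and 6040 cells remained in the sorted and the 2 whole-mesenchyme libraries, which shared 0 to 7 barcodes pairwise. The 8 telocyte markers summed to 4052 and 4125 CPM in the telocyte libraries and to at most 423 CPM in the others. The 8 fibroblast markers summed to 17815 and 23838 CPM in the PDGFRAlo libraries and to at most 494 CPM in the others, but blood endothelial markers also reached 2746 and 924 CPM in the PDGFRAlo libraries. In the telocyte libraries the smooth muscle list summed to 1671 and 1092 CPM with 1 of its 8 markers at 0, and the pericyte list to 2262 and 2292 CPM with none at 0 (1568 and 631 CPM in PDGFRAlo cells). Macrophage or dendritic markers summed to 4469 and 2888 CPM in blood and to 6807 and 7526 CPM in lymphatic endothelium. The part of such cells in the levels was not tested.

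The promoters of 3 members with different patterns are shown so that their start regions can be compared; no link between sequence and level was tested. They are those of Wif1, the member called higher in telocytes than in PDGFRAlo cells, and Frzb and Dkk2, both called lower in telocytes. Each run below spans 250 bases before to 50 after the RefSeq start (GRCm38.p6), 5′ to 3′ on the gene's strand: Wif1 at chr10:121033754-121034053 (plus), Frzb at chr2:80447347-80447646 (minus) and Dkk2 at chr3:132085042-132085341 (plus). Capitals mark matches, on either strand, to a TATA motif (TATAAA), a TCF/LEF motif (CTTTGA) or a forkhead motif (TGTTTAC).
Wif1: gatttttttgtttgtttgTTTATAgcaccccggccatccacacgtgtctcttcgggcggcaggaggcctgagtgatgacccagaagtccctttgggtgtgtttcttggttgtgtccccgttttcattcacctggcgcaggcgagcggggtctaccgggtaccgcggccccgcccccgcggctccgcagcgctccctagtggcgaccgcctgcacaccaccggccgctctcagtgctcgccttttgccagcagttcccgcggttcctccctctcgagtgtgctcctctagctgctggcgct
Frzb: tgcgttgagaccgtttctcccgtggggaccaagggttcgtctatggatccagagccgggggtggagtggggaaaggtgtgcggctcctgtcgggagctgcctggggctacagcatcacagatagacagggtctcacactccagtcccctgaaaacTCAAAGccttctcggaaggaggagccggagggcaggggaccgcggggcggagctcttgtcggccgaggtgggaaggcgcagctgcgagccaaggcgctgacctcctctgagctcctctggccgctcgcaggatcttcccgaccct
Dkk2: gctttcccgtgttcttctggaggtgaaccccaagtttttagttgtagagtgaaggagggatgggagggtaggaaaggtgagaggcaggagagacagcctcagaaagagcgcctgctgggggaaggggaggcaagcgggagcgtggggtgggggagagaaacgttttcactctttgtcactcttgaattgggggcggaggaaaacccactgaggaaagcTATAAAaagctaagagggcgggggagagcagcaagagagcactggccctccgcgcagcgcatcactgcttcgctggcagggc
The Dkk2 window held TATAAA starting 32 bases before the start, and the Wif1 window held it on the opposite strand 232 bases before. The Frzb window held CTTTGA on the opposite strand, 95 bases before the start. None of the 3 windows held TGTTTAC. Over 32851 promoter windows of the same length, 13.6% held the TATA letters, 16% the TCF/LEF letters and 3.65% the forkhead letters, so such matches are common and describe the windows only.

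Telocytes and PDGFRAlo cells carried different inhibitors. Wif1 rose in telocytes, Sfrp1, Sfrp4, Frzb and Dkk2 fell, and Dkk3 was abundant in both. Of the 8 members, 7 passed the low-count filter and 5 were called, of which telocytes had 1 higher and 4 lower, where 14.9% of all 14893 genes tested were called (2.77% higher and 12.1% lower). The median log2 difference of the 7 was -5.51, against -0.03 over all genes. Per length, the highest members in telocytes were Dkk3 at 304 ± 19.0, Wif1 at 54.9 ± 11.9 and Sfrp1 at 20.2 ± 8.72 CPM per kilobase of exon (SD, n = 2). In PDGFRAlo cells they were Sfrp1 at 920 ± 221, Dkk3 at 180 ± 20.2, Dkk2 at 75.2 ± 0.361 and Frzb at 21.9 ± 8.92. In bulk samples, fewer cells of a type and less RNA per cell cannot be told apart.

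**Figure D1:**
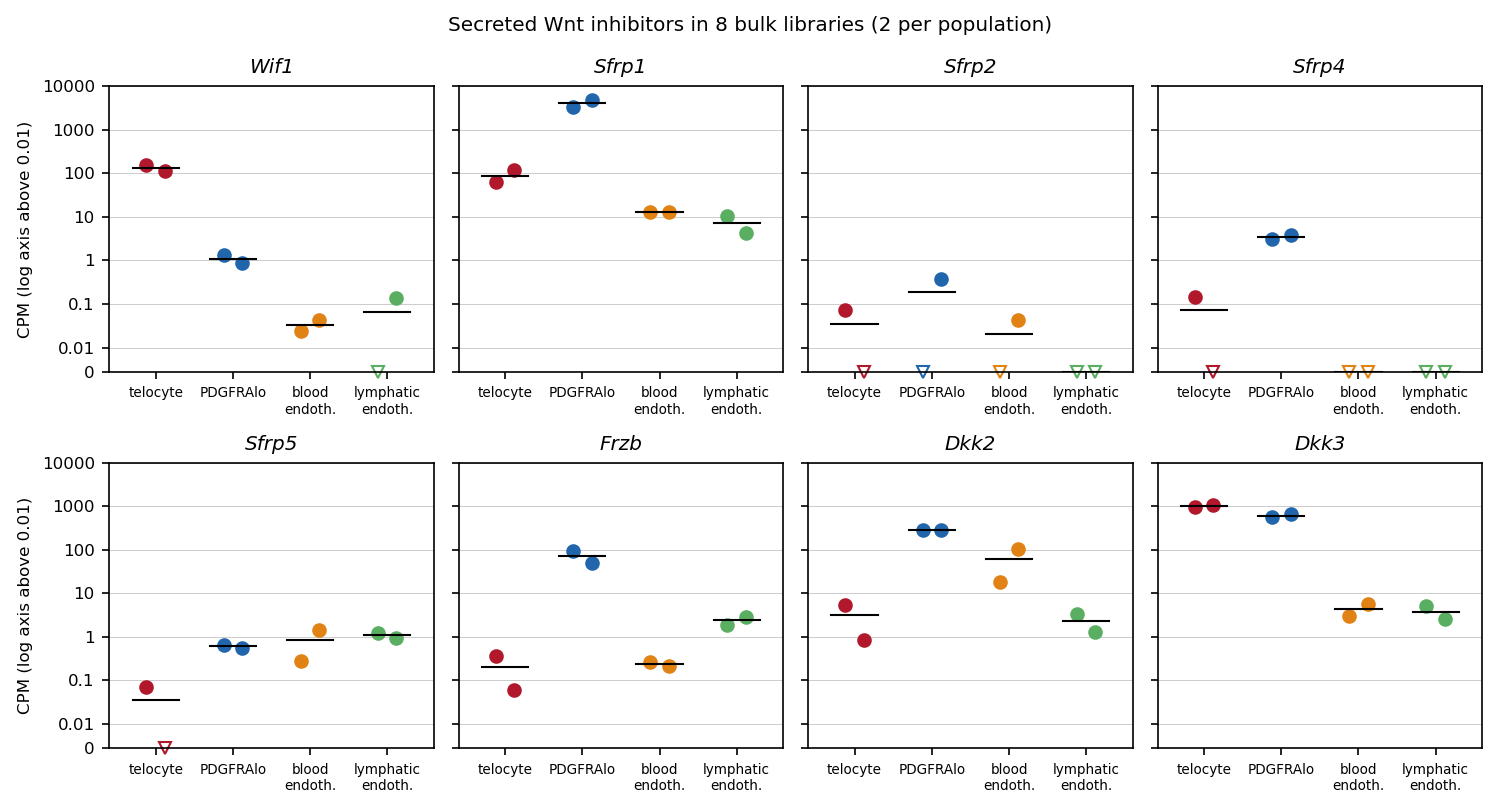
Level of each member in CPM (log axis above 0.01, open triangles at 0) in the 8 bulk libraries. Points are libraries and bars the means of 2: Wif1 is highest in telocytes, Sfrp1, Sfrp4, Frzb and Dkk2 in PDGFRAlo cells, and the Dkk2 points of blood endothelium lie far apart.

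Among the proteins that bind Wnt directly, Wif1 (chromosome 10, 121033960 to 121100650, plus strand, GRCm38) measured 154 and 113 CPM in the 2 telocyte libraries. It measured 1.32 and 0.878 CPM in PDGFRAlo cells, 0.0236 and 0.0419 in blood endothelium, and 0 and 0.134 in lymphatic endothelium. Both telocyte libraries lay far above the rest, and the PDGFRAlo libraries above both endothelia, whose values overlapped. The log2 difference between telocytes and PDGFRAlo cells was 6.93 (SE 0.48, edgeR adjusted p = 0.000240). Blood and lymphatic endothelium, with 2 counts each, did not differ beyond their spread (adjusted p = 0.441).

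Sfrp1 (chromosome 8, 23411502 to 23449632, plus strand) had the highest level per length of any member in PDGFRAlo cells, and measured 3338 and 4705 CPM there. Telocytes had 61.5 and 115 CPM, blood endothelium 12.6 in both libraries, and lymphatic endothelium 10.3 and 4.30. The groups did not overlap, although the step from blood to lymphatic endothelium was not called (adjusted p = 0.281). Telocytes were lower than PDGFRAlo cells by a log2 difference of -5.51 (SE 0.60, adjusted p = 0.000544). The telocyte values were 1.53% and 2.87% of the PDGFRAlo mean, and the fibroblast marker list stood at 1.89% and 2.37% of its PDGFRAlo mean in the same libraries, so the part of PDGFRAlo cells in this level was not tested in bulk.

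Frzb (chromosome 2, 80411970 to 80447625, minus strand), also called Sfrp3, measured 91.4 and 50.6 CPM in PDGFRAlo cells and 0.356 and 0.0605 in telocytes. It measured 1.89 and 2.89 CPM in lymphatic endothelium and 0.260 and 0.209 in blood endothelium. PDGFRAlo cells stood highest, lymphatic endothelium came next, and the last pair, telocytes and blood endothelium, overlapped (adjusted p = 0.806). Telocytes were lower than PDGFRAlo cells by -8.43 on the log2 scale (SE 0.70, adjusted p = 0.000259); this was -10.07 without telocyte replicate 1 and -7.61 without telocyte replicate 2, and was called in both fits. The lymphatic level, 2.66% and 4.07% of the PDGFRAlo mean, exceeded that of the fibroblast list there (0.254% and 0.198%). It was above the blood endothelial level (log2 difference of blood against lymphatic -3.32, adjusted p = 0.00599), a call lost without lymphatic replicate 2 (adjusted p = 0.0584).

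The other Frizzled-related genes were scarce. Sfrp4 (chromosome 13, 19623104 to 19632994, plus strand) measured 3.17 and 3.74 CPM in PDGFRAlo cells, 0.143 and 0 in telocytes, and 0 in all 4 endothelial libraries. Its fall in telocytes (log2 difference -5.56, adjusted p = 0.0320) rested on 2 telocyte counts, a count ratio of 53.6 with an exact 95% interval of 14.5 to 447. It was not called without any 1 of the 4 libraries compared (adjusted p between 0.0683 and 0.201) or in DESeq2 (0.482), which called 18.4% of 15632 genes. Against the endothelial libraries Sfrp4 was at least 77.4-fold higher in PDGFRAlo cells for blood and at least 26.0-fold for lymphatic endothelium, with 3 counts over the group as the floor; DESeq2 called neither (adjusted p = 0.0754 and 0.151), and the lymphatic call was lost without lymphatic replicate 2 (0.0532). Sfrp5 (chromosome 19, 42197971 to 42202252, minus strand) stayed at or below 1.42 CPM in every library, and its telocyte value, from 1 count, was not called against PDGFRAlo cells (log2 difference -3.95, adjusted p = 0.120). Sfrp2 (chromosome 3, 83766321 to 83774316, plus strand) had 10 counts in the whole table, 8 of them in PDGFRAlo replicate 2, and was not tested.

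Of the Dickkopf genes, Dkk2 (chromosome 3, 132085292 to 132180304, plus strand) measured 279 and 278 CPM in PDGFRAlo cells and 5.35 and 0.848 in telocytes. Blood endothelium had 17.9 and 103 CPM, and lymphatic endothelium 3.38 and 1.28. PDGFRAlo cells were high and alike, telocytes and lymphatic endothelium were low and overlapped (adjusted p = 0.710), and the blood endothelial libraries were 5.77-fold apart. Telocytes were lower than PDGFRAlo cells by -6.50 on the log2 scale (SE 1.09, adjusted p = 0.00372), with -8.37 without telocyte replicate 1 and -5.70 without telocyte replicate 2. The step from PDGFRAlo cells to blood endothelium was not called (log2 difference 2.21, adjusted p = 0.0702; 0.0379 without telocyte replicate 1, 0.0379 without telocyte replicate 2 and 0.0186 without blood replicate 2). Blood endothelium was above lymphatic endothelium (log2 difference 4.77, adjusted p = 0.0121), a call lost without blood replicate 2 (adjusted p = 0.0516), lymphatic replicate 1 (0.0526) or lymphatic replicate 2 (0.111). The blood endothelial values were 6.42% and 37.0% of the PDGFRAlo mean, whereas the fibroblast list there was 0.805% and 0.902% of its own.

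Dkk3 (chromosome 7, 112116017 to 112159057, minus strand) measured 977 and 1067 CPM in telocytes and 556 and 652 in PDGFRAlo cells. Both endothelia stayed between 2.62 and 5.61 CPM. The telocyte libraries lay above the PDGFRAlo libraries without overlap, but the difference did not pass the test (log2 difference 0.76, SE 0.43, adjusted p = 0.331). Against endothelium Dkk3 was called in all 4 pairs, with log2 differences from 7.14 to 8.10.

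In the other pairs of populations, members called between PDGFRAlo cells and endothelium were all higher in PDGFRAlo cells. Telocytes had calls in both directions against endothelium. Against blood endothelium 5 of 7 tested members were higher in PDGFRAlo cells and 0 lower (42.5% of all genes called, 21.2% higher and 21.3% lower), and against lymphatic endothelium 6 were higher and 0 lower (44.3%, 24.1% higher and 20.2% lower). Telocytes had 3 higher and 2 lower against blood (52.1% of genes called, 22.6% higher and 29.6% lower) and 3 higher and 2 lower against lymphatic endothelium (51.0%, 24.0% higher and 27.0% lower). Wif1, Sfrp1 and Dkk3 were the higher genes in both; Sfrp5 was among the lower in both, with its calls lost without either telocyte library (adjusted p between 0.0679 and 0.196) or either lymphatic library (between 0.0530 and 0.0862). The call against blood was also lost without PDGFRAlo replicate 1 (0.0513) or blood replicate 2 (0.166). Between the endothelia 1 was higher and 1 lower in blood (23.0%, 14.7% higher and 8.32% lower), Dkk2 and Frzb respectively. These comparisons share libraries and are not independent.

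The single-cell libraries allowed the same genes to be read in cells sorted by marker, with none of the 8 among the markers. A cell was put in the gate for which it showed at least 3 markers and a lead of at least 2 over every other of 13 class lists, so gates stand for marker patterns. In the 2 whole-mesenchyme libraries the telocyte gate held 71 and 65 cells and the fibroblast gate, the counterpart of PDGFRAlo cells, 1109 and 1038. UMIs were summed per library and gate and tested in edgeR with the library as a block. Of 6 members that passed the filter, 2 were higher and 3 lower in the telocyte gate; the other, Sfrp5, passed through the glia gate alone and had 0 UMIs in both gates compared. Over the same fit 22.0% of 12517 genes were called (9.71% higher, 12.3% lower).

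Wif1 measured 76.9 and 68.2 CPM in the telocyte gate, and 0 and 0.127 CPM in the fibroblast gate, where 1 UMI was seen in all. Telocytes were the high gate in both libraries, with a count ratio of 1192 and an exact 95% interval of 208 to 47670 for counting error only (edgeR adjusted p = 2.90e-14, DESeq2 adjusted p = 0.199). Sfrp1 measured 95.6 and 179 CPM in the telocyte gate and 3112 and 3089 in the fibroblast gate (log2 difference -4.69, SE 0.17, adjusted p = 1.79e-23). Dkk2 measured 11.3 and 7.37 CPM against 243 and 241 (log2 difference -4.89, SE 0.28, adjusted p = 6.65e-17). Both genes were low in telocytes and high in fibroblasts without overlap. Frzb had 0 UMIs in both telocyte sums and 34.7 and 31.7 CPM in the fibroblast gate, at least 11.9-fold higher there (adjusted p = 4.51e-08). Dkk3 was the member shared by both gates, at 375 and 396 CPM in telocytes and 223 and 229 in fibroblasts. The telocyte gate was higher by 0.57 (log2, SE 0.10, adjusted p = 1.21e-05), but not under a stricter gate (log2 difference 0.31, adjusted p = 0.0583). Free RNA, read from droplets with at most 50 UMIs, held 404 and 381 CPM of Sfrp1, 53.1 and 64.0 of Dkk3, 35.2 and 27.7 of Dkk2, and 1.50 and 1.30 of Wif1. In the telocyte gate 7 of the 8 fibroblast markers were detected, summing to 1474 and 1605 CPM against 9361 and 9180 in the fibroblast gate; their part in the telocyte Sfrp1 level was not tested.

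**Figure D2:**
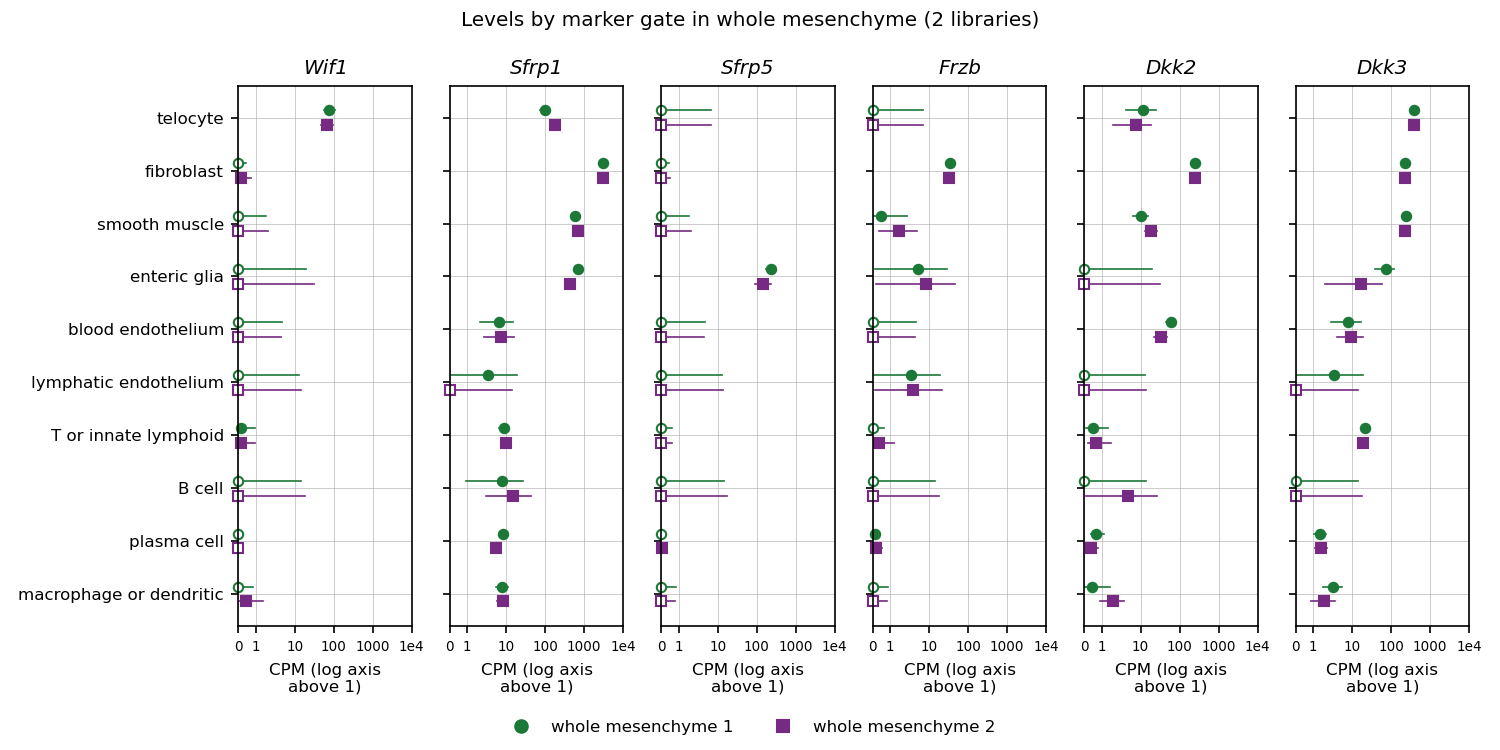
Level of 6 members in CPM (log axis above 1) in the 10 marker gates with at least 20 cells in each whole-mesenchyme library. Points are sums of 1 library, open where 0 UMIs were seen, with exact 95% Poisson intervals: Wif1 is seen in telocytes, Sfrp5 in the glia gate, and Dkk2 in fibroblasts and, lower, in blood endothelium.

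Other gates held members at measurable levels. In the smooth muscle gate (293 and 254 cells) Sfrp1 measured 595 and 699 CPM and Dkk3 245 and 229 CPM. All 8 fibroblast markers were detected in that gate, summing to 374 and 431 CPM, and their part in these levels was not tested. In the glia gate (37 and 26 cells) Sfrp1 measured 704 and 421 CPM. The latter had an interval of 313 to 553, which holds the free-RNA level of 381 CPM. Fibroblast markers summed to 2336 and 1700 CPM in the glia gate, with 7 and 6 of 8 detected. Telocyte markers summed to 741 and 470 CPM there. Their part in the Sfrp1 level was not tested. In the same gate Sfrp5 measured 233 and 149 CPM from 45 and 18 UMIs, and 56.8% and 34.6% of the cells had a UMI. The telocyte and fibroblast gates had 0 Sfrp5 UMIs, so the glia gate was at least 1098-fold above the fibroblast gate on a floor of 3 UMIs. In bulk the enteric glia markers summed to 2.14 and 1.09 CPM in telocytes, where Sfrp5 was lowest, and to between 6.79 and 28.9 CPM in the other populations; their part in the bulk Sfrp5 levels was not tested.

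Dkk2 was also measured in the blood endothelial gate, at 59.7 and 33.6 CPM. A UMI was carried by 11.2% and 10.3% of its 152 and 155 cells. In replicate 1 the exact Poisson interval was 43.8 to 79.4 CPM, above the free-RNA level of 35.2 CPM. In replicate 2 it was 22.3 to 48.5 CPM, which holds the free-RNA level of 27.7 CPM. The part of free RNA in this Dkk2 level was not tested. The lymphatic endothelial gate had 0 Dkk2 UMIs. The macrophage or dendritic gate, which was deeper (median 8037 and 9052 UMIs per cell, against 4699 and 4765 in blood endothelium), had a UMI in 0.462% and 1.16% of cells. The blood endothelial gate thus stood above both in each library.

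Telocytes were divided by a UMI of Slitrk6, and those without it by a UMI of Chrd, a BMP antagonist; this division was chosen with earlier results on Wif1 known, so the Wif1 difference is no independent support for it. The Slitrk6 gate held 22 and 21 cells and the Chrd gate 29 and 28 in the whole-mesenchyme libraries. The other 20 and 16 telocyte-gate cells, with neither Slitrk6 nor Chrd, were not compared. Wif1 measured 115 and 120 CPM in the Chrd gate and 5.72 and 5.55 in the Slitrk6 gate (1 UMI each). Sfrp1 ran the other way, with 206 and 394 CPM in the Slitrk6 gate and 17.7 and 3.99 in the Chrd gate. Free RNA of the same libraries held 404 and 381 CPM of Sfrp1, and its part in these levels was not tested. The 2 inhibitors were thus each higher in a different one of these 2 gates, without overlap in either case. Only 4 members had UMIs in these telocyte sums (Wif1, Sfrp1, Dkk2 and Dkk3), and 1 was higher and 1 lower in the Slitrk6 gate, where 1.84% of 10154 genes were called (1.01% higher, 0.827% lower). The log2 difference was 4.81 for Sfrp1 (SE 0.49, adjusted p = 4.32e-07; 6.25 without replicate 1 and 3.40 without replicate 2, with no test) and -4.37 for Wif1 (SE 0.82, adjusted p = 0.00378). Dkk3 was not called (458 and 483 against 333 and 339 CPM, adjusted p = 0.137).

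The sorted library, which has no replicate and gives no test, showed the same order. Its Chrd gate (269 cells) had 319 CPM of Wif1 and its Slitrk6 gate (60 cells) 9.89 CPM, a ratio of 32.2 with an exact 95% interval of 11.0 to 157. Sfrp1 was at 36.7 and 283 CPM respectively, 7.72-fold higher in the Slitrk6 gate (5.45 to 11.0). Free RNA of this library held 1297 CPM of Sfrp1, and its part in these levels was not tested. The 217 telocyte-gate cells with neither Slitrk6 nor Chrd held both inhibitors. They had Wif1 at 165 CPM (29.5% of cells) and Sfrp1 at 90.0 CPM (24.9%). A Wif1 UMI was seen in 54.3% of Chrd-gate cells and in 5% of Slitrk6-gate cells, and in 35.5% and 3.39% after cells were thinned to 2000 UMIs. The fibroblast gate of that library had a Wif1 UMI in 1.27% of cells, at a median depth of 5047 UMIs against 5455 and 4877 in the Chrd and Slitrk6 gates. Among all 546 telocyte-gate cells, 213 had Wif1 and 133 Sfrp1, and 33 had both: Sfrp1 was seen in 15.5% of cells with Wif1 and in 30.0% of cells without it, although cells with Wif1 were deeper (median 5461 against 4556 UMIs).

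**Figure D3:**
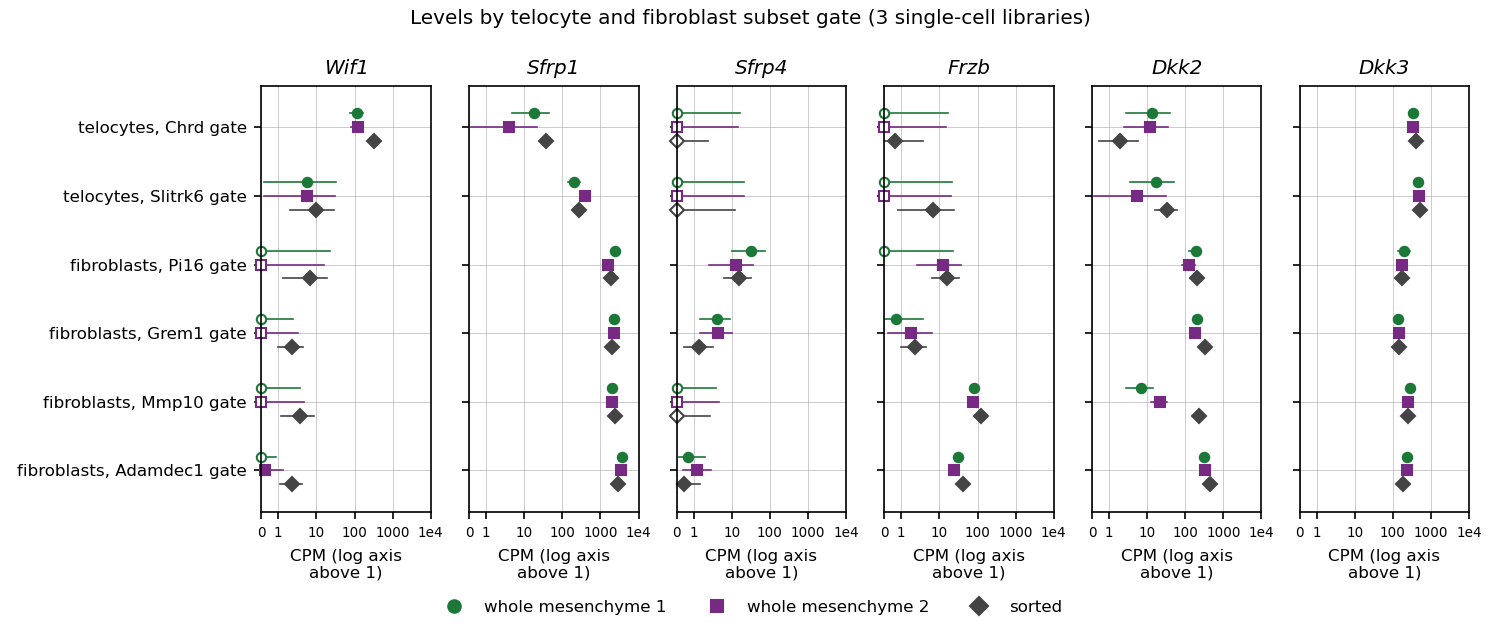
Level of 6 members in CPM (log axis above 1) in 2 telocyte and 4 fibroblast gates of the 3 single-cell libraries. Points are sums of 1 library, open where 0 UMIs were seen, with exact 95% Poisson intervals: Wif1 and Sfrp1 take opposite telocyte gates, Frzb is higher in the Mmp10 than in the Grem1 gate in all 3 libraries, and Dkk2 in the Mmp10 gate differs between the sorted and whole-mesenchyme libraries.

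Fibroblasts were divided by 4 short marker lists, each named for its first gene, which left 128 and 109 cells in the Mmp10 gate, 172 and 135 in the Grem1 gate, 560 and 536 in the Adamdec1 gate, and 22 and 30 in the Pi16 gate. A cell went to the list with the largest share of its markers detected. The 227 and 228 fibroblasts in none of these gates were not compared. The Adamdec1 list did not mark its gate alone: it summed to 12007 and 11933 CPM in the Mmp10 gate, against 8781 and 8816 in the Adamdec1 gate. In the Pi16 gate the Grem1 list summed to 1613 and 992 CPM and the Pi16 list to 1115 and 1764. Sfrp1 was high in all 4 gates, between 1599 and 3614 CPM. Frzb, Dkk2 and Sfrp4 differed between them. Wif1 had at most 1 UMI in any of these sums and could not be compared. Frzb measured 80.4 and 77.8 CPM in the Mmp10 gate, 31.3 and 23.7 in the Adamdec1 gate and 0.678 and 1.79 in the Grem1 gate, where 3 UMIs were seen in all. The Pi16 gate, with 0 and 12.7 CPM from 3 UMIs, overlapped the Grem1 gate. The Mmp10 gate was above the Adamdec1 gate (log2 difference 1.42, SE 0.19, adjusted p = 4.69e-06) and above the Grem1 gate (count ratio 68.5, exact 95% interval 23.0 to 336, edgeR adjusted p = 3.37e-10). The sorted library gave the same order, with 123, 42.6 and 2.28 CPM.

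Dkk2 measured 7.12 and 21.3 CPM in the Mmp10 gate, 316 and 323 in the Adamdec1 gate, 201 and 181 in the Grem1 gate, and 187 and 122 in the Pi16 gate. The Mmp10 gate was lower than each of the others without overlap, with log2 differences of -4.65 against Adamdec1 (SE 0.23, adjusted p = 3.99e-14) and -4.08 against Grem1 (SE 0.25, adjusted p = 1.07e-12). The difference against Adamdec1 was -4.00 without replicate 1 and -5.43 without replicate 2, with no test, and -6.68 under the stricter gate. In the sorted library the gap was far smaller: Dkk2 was at 227 CPM in the Mmp10 gate and 454 in the Adamdec1 gate, a ratio of 1.99 (1.77 to 2.25). Its Mmp10 gate still held 143 CPM under the stricter gate. Free RNA of that library held 146 CPM of Dkk2, and its telocyte gate held 6.39 CPM. The fibroblast list summed to 7172 CPM in the sorted Mmp10 gate, against 4018 and 4056 CPM in the whole-mesenchyme Mmp10 gates. The cause of the Dkk2 difference between libraries was not tested.

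Smaller differences separated the gates as well. Sfrp1, Dkk2, Dkk3 and Frzb were all lower in the Grem1 than in the Adamdec1 gate (4 of 5 members with more than 1 UMI there, with 11.9% of genes called, 6.78% higher and 5.17% lower); Sfrp1 (log2 difference -0.49, adjusted p = 0.00248) and Dkk2 (-0.58, adjusted p = 0.00320) were not called in DESeq2 (0.316 and 0.0703). Among the same members, 1 was higher and 2 lower in the Mmp10 than in the Adamdec1 gate (13.1%, 6.25% higher and 6.86% lower), 2 higher and 2 lower in the Mmp10 than in the Grem1 gate (21.3%, 9.72% higher and 11.6% lower), and 1 higher and 2 lower in the Pi16 than in the Adamdec1 gate (3.07%, 1.85% higher and 1.22% lower). Between the Pi16 and Mmp10 gates 2 were higher and 1 lower (9.77%, 5.42% higher and 4.35% lower), and between Pi16 and Grem1 edgeR called 0 (3.91%, 1.59% higher and 2.32% lower), with Sfrp1, Dkk2 and Sfrp4 at an unadjusted p under 0.05 and 0 called by DESeq2. Sfrp4 had its highest values in the Pi16 gate, which was not called above the Grem1 gate (4.07 and 4.47 CPM, adjusted p = 0.387), at 31.1 and 12.7 CPM from 5 and 3 UMIs, against 0.695 and 1.21 CPM in the Adamdec1 gate (log2 difference 4.28, SE 1.07, adjusted p = 0.0259; 0.0705 in DESeq2; 2.60 without replicate 1). The Mmp10 gate had 0 Sfrp4 UMIs, so the Pi16 gate was at least 11.9-fold higher on a floor of 3 UMIs (edgeR adjusted p = 0.00980). The sorted library had 15.5 CPM in its Pi16 gate and 0.416 in its Adamdec1 gate. Sfrp2 had 1 UMI in the fibroblast gates of whole mesenchyme, in the Pi16 gate, and was not tested.

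Within the fibroblast gate of the sorted library, 4 inhibitors were seen in many cells and 4 in few. Sfrp1 was seen in 98.6% of cells, Dkk2 in 58.5%, Dkk3 in 51.8% and Frzb in 14.5%, against 1.27% for Wif1, 0.561% for Sfrp4, 0.0374% for Sfrp2 and 0 for Sfrp5. In the telocyte gate, at a similar median depth (4909 against 5047 UMIs), the shares were 24.4% for Sfrp1, 2.38% for Dkk2, 82.6% for Dkk3 and 0.549% for Frzb. The telocyte gate had 231 CPM of Wif1, 408 of Dkk3, 82.0 of Sfrp1 and 6.39 of Dkk2, against 5.31, 180, 2606 and 369 in the fibroblast gate. Wif1 was 43.6-fold higher in telocytes (exact 95% interval 34.0 to 56.7) and Dkk3 2.26-fold (2.11 to 2.43), while Sfrp1 was 31.8-fold (27.9 to 36.3) and Dkk2 57.8-fold (36.5 to 97.6) higher in fibroblasts.

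The genes most like each of the 5 members with at least 100 UMIs (all but Sfrp2, Sfrp4 and Sfrp5) over the 20 library-by-gate sums of whole mesenchyme (Pearson r of log2(CPM + 1), 2 libraries sharing depth for 10 gates) were Dio2 (r = 0.997) and Tbx4 (0.980) for Wif1, beside the telocyte marker Sv2b. For Sfrp1 they were Adamts2 (0.964), Rai2 (0.963) and Meg3 (0.962), and for Frzb Shisa2 (0.956), Col14a1 (0.916) and 9330159F19Rik (0.861). For Dkk2 they were Pcdh19 (0.955), Slit3 (0.95) and Mgp (0.945), and for Dkk3 Dzip1 (0.973), Gpx8 (0.951) and Tbx2 (0.946). These are descriptions of shared level across gates.

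Other genes of the pathway are read against the shares over all genes given above, 2.77% higher and 12.1% lower in bulk and 9.71% and 12.3% in the gates. Of 15 further extracellular Wnt inhibitors 9 were tested in bulk, with 0 above and 5 below the PDGFRAlo level in telocytes (median log2 difference -5.11). Apcdd1, a membrane-bound Wnt inhibitor, measured 8.48 and 5.63 CPM in telocytes against 251 and 237, and Shisa3, which holds Frizzled receptors inside the cell, 0.428 and 9.87 against 99.6 and 318. All 3 tested R-spondins, which amplify Wnt signals, were lower, Rspo2 at 0.0713 and 0.0605 CPM against 23.5 and 47.6. Of 8 tested Wnt ligands 3 were higher and 3 lower. Wnt5a, a ligand known for noncanonical signalling, measured 295 and 342 CPM in telocytes against 33.4 and 34.7 (adjusted p = 0.0161 in edgeR), and Wnt4 136 and 120 against 30.8 and 5.82 (0.0179). Of 18 tested receptors and coreceptors 2 were higher and 3 lower, with Fzd1 at 128 and 109 CPM against 599 and 790. Of 12 tested Wnt-induced genes 0 were higher and 4 lower. In the whole-mesenchyme gates the further inhibitors gave 1 higher (Kremen1, a DKK receptor, at 80.6 and 51.6 CPM against 31.4 and 35.9) and 5 lower of 8 tested, the R-spondins 0 and 3 of 3, the ligands 3 and 1 of 9, the receptors 4 and 4 of 16, and the Wnt-induced genes 2 and 2 of 11.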

How the data were processed

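The authors deposited 1 bulk table of whole-number counts, with a row for each gene symbol. Single-cell values were UMI counts in the authors' deposited matrices. Per the submitters' processing notes, STAR and mm10 were used for the bulk libraries, and Cell Ranger 2.1.1 (sorted) and 3.0.2 (whole mesenchyme) for single cells. For the bulk reads, the counter and its strandedness: not given in the sources used here. Whole-mesenchyme labels repeat the sorting text of the sorted library.

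Bulk counts were tested in edgeR 4.0.16 (R 4.3.3): filterByExpr, TMM scaling, quasi-likelihood F-tests in 1 model of all 4 groups, Benjamini-Hochberg adjustment over all genes, called under 0.05. CPM use TMM-scaled library sizes, and per-kilobase values use exon unions of GENCODE vM21. The 26 names turned into dates by a spreadsheet (0.131% to 0.523% of counts) were left out, and 24449 names matched annotated symbols. Cells were placed by markers alone, without a doublet caller: cells without a clear lead stayed out. Subset gates needed at least 2 markers of their list. Single-cell sums were fitted the same way, with library as a block, for gates with at least 20 cells in each library. Gates with 13 and 24 pericyte-gate cells were not tested. Intervals cover counting error only.

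The members, marker lists, pathway lists and gates were chosen with earlier results of these data known. Genes outside the members were named from the fixed lists (at most 4 per list, by mean CPM) or as the 3 most like a member among 10955 genes; other genes were chosen after their values were seen. Promoters of Sfrp1, Sfrp4 and Dkk3 were not used here. On simulated counts, 16 of 100 genes changed 4-fold and 0 of 100 changed 2-fold were called in bulk (telocyte against PDGFRAlo, 14893 genes); for the telocyte against the fibroblast gate (12517 genes) 80 and 51 of 100 were called. Alternatives were RLE scaling, no filter, DESeq2 1.42.0, the 4 stromal libraries alone, the replicate block, left-out libraries, and other gates.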

Additional observations from a re-analysis of the deposited data

Results flagged for a closer look

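Some gates outside the comparisons held members whose lower 95% Poisson bound was above the free-RNA level of their own library, in both whole-mesenchyme libraries. Sfrp5 stood at 233 and 149 CPM in the glia gate. In the smooth muscle gate Sfrp1 stood at 595 and 699 CPM and Dkk3 at 245 and 229 CPM. Fibroblast markers summed to 374 and 431 CPM in that gate, and their part was not tested. In the sorted library the 653 cells that no gate took held 139 CPM of Wif1 and 407 CPM of Dkk3, against 33.9 and 190 CPM in its free RNA. The telocyte markers summed to 1419 CPM in these cells, between the 2126 CPM of the telocyte gate and the 168 CPM of the fibroblast gate.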

How the results depend on the processing

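In bulk, 1 member higher in telocytes than in PDGFRAlo cells was called in every alternative run, and 3 to 4 lower when single libraries were left out. Leaving out single libraries gave 5 to 6 called members for PDGFRAlo cells against blood endothelium, 5 to 6 against lymphatic endothelium, 4 to 5 for telocytes against either endothelium and 0 to 2 between the endothelia. A lone library in a group was assumed to vary like the other groups. Deviations of same-numbered bulk libraries correlated from -0.097 to 0.279. The highest values were 0.279 for blood with lymphatic endothelium and 0.123 for telocytes with PDGFRAlo cells. With 2 libraries per group these values cannot decide whether the replicate numbers pair libraries. With the replicate block 3 members were lower in telocytes than in PDGFRAlo cells, Sfrp4 having an adjusted p of 0.0556, and telocytes against blood endothelium kept 4 calls. Without the library block of the single-cell fits, the Mmp10 against Grem1 gates gave 5 calls for 4. In whole mesenchyme, 1 member in place of 2 was called higher in the telocyte gate by DESeq2 and under the stricter gate, which lost Wif1 and Dkk3 respectively. DESeq2 called 2 in place of 4 members for Grem1 against Adamdec1 gates and 1 in place of 3 for Pi16 against Adamdec1. For the telocyte gates it called 1 in place of 2. There it gave Wif1 the same direction (log2 difference -4.39) but no adjusted p, so it made no call on Wif1. Without the low-count filter Sfrp1 was called between the Pi16 and Grem1 gates (1 call for 0). In the sorted library the log2 ratio of telocyte to fibroblast gate was 5.45 for Wif1 (6.55 stricter, 4.61 looser), -4.99 for Sfrp1 (-4.67 looser), -5.85 for Dkk2 (-7.21 stricter) and 1.18 for Dkk3 (1.32 in thinned cells). The causes were not tested. No called value changed sign. The stricter gate left too few cells to compare the telocyte gates or the Pi16 gate. With 1 whole-mesenchyme library left out no test was possible, and values only were given. Low counts limit Sfrp2 and Sfrp4 throughout and Sfrp5 outside the glia gate.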

Other observations

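Dkk2 in blood endothelial cells went with genes known from arterial endothelium. In the blood endothelial gate of whole mesenchyme, 17 and 16 cells had a Dkk2 UMI. Gja5, a gap-junction gene of arterial endothelium, was seen in 7 of 17 and 11 of 16 of these cells, against 7 of 135 and 9 of 139 others. Sema3g, a semaphorin gene of arterial endothelium, was seen in 16 of 17 and 15 of 16, against 36 of 135 and 36 of 139. Ackr1, a marker of venules, was seen in 0 of 17 and 0 of 16, against 18 of 135 and 27 of 139. Gja4 and Hey1 were also seen more often in cells with Dkk2 (Hey1 in 58.8% and 56.3% against 26.7% and 28.8%). Plvap, a marker of the gate, did not separate the cells. It was seen in 16 of 17 and 16 of 16, against 134 of 135 and 135 of 139. Of 4 fibroblast markers looked at, Clec3b and C3 were seen in 0 of the cells with Dkk2, and Dpt in 0 and 1. Fbln1 was seen in 1 and 2 of them, against 5 of 135 and 6 of 139 others. The gate asked for a lead of at least 2 markers over the fibroblast list, so these low counts were partly fixed by it. Over the whole gate 7 of the 8 fibroblast markers were detected, summing to 422 and 513 CPM. The part of fibroblast RNA in this Dkk2 level was not tested. The genes shown here were chosen after values were seen, and no test was made over cells. Cells with Dkk2 were also deeper (median 5553 and 5354 UMIs against 4278 and 4649).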
